A study of Mus musculus with 8 samples.

Results

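Complement is a cascade of plasma proteins that tags and lyses microbes, and hepatocytes make most of its soluble components. The 34 genes described here are its classical, lectin, alternative and terminal components together with soluble regulators, membrane regulators and receptors, chosen by gene symbol, with the macrophage-made C1q genes left out. All 34 were found among the 27179 genes of the deposited table. They were measured in RNA sequencing of liver from 4 wild-type (V227) and 4 homozygous V227A mutant (A227) adult male C57BL/6NHsd mice, which had all been fasted for 6 h. V227A is a germline alanine-for-valine substitution in *Ppara*, the fatty acid-sensing nuclear receptor of liver. The mutant line was made by base editing of zygotes and goes back to a single founder that was backcrossed to the same strain.

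The level of each gene is the authors' average over all 8 libraries, wild-type and mutant together, given on the log2 scale as CPM, in which read counts are divided by the size of the library. The table holds 0 columns of values for single libraries, so no level below has an SD or an n, and the genotypes are not compared here. Genes without reads sat at a common floor of -3.78, which left 18937 genes with reads. From that floor, with the default prior count of 2, the mean effective library size was estimated as 27473997 reads, which puts the middle gene at about 100.1 reads in each library. Because longer transcripts give more reads, genes were compared as CPM per kilobase of exon, in the GENCODE vM21 annotation of GRCm38. This was done for the 17956 genes with reads and a known exon length. The annotation used for the counting is not given in the sources used here, so the counted exons may differ from these exons. The hepatocyte markers fixed for the label of the tissue were all high, from 168.5 CPM per kilobase for *Hnf4a* to 29709 for *Alb*. The 8 neutrophil markers were at most 0.947, with *Mpo* at the floor.

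The liver transcriptome was rich in complement. All 34 genes had reads, 23 lay in the top 10% of genes by level per kilobase, and their median lay at percentile 97.3. The top 1% held 7 of them, but 3 with coding length in place of exon length and 3 when only genes with an average log2 CPM of at least 0 were ranked. The median complement gene stood at 93.3 CPM per kilobase, against 1.14 for all genes with reads. Together the 34 genes took 2.25% of all reads, and *C3* alone took 34.7% of that share. The range was wide, with 24079-fold between the highest and the lowest gene per kilobase, or 42449-fold with the prior count taken off. Of the 29 genes for soluble proteins 22 were in the top 10%, and of the 5 genes for membrane regulators and receptors 1 was. With exon length the 5 genes below the middle of the transcriptome were *C1rb*, *C1s2*, *C7*, *C3ar1* and *C5ar1*. With coding length *Cfd* also fell below it, at percentile 42.3. Among all genes of the table *C3ar1* rose above it, to percentile 52.2. When only genes with an average log2 CPM of at least 0 were ranked, *Masp1*, *Cr1l*, *Cfd* and *Cd55* joined *C3ar1* below the middle.

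**Figure D1:**
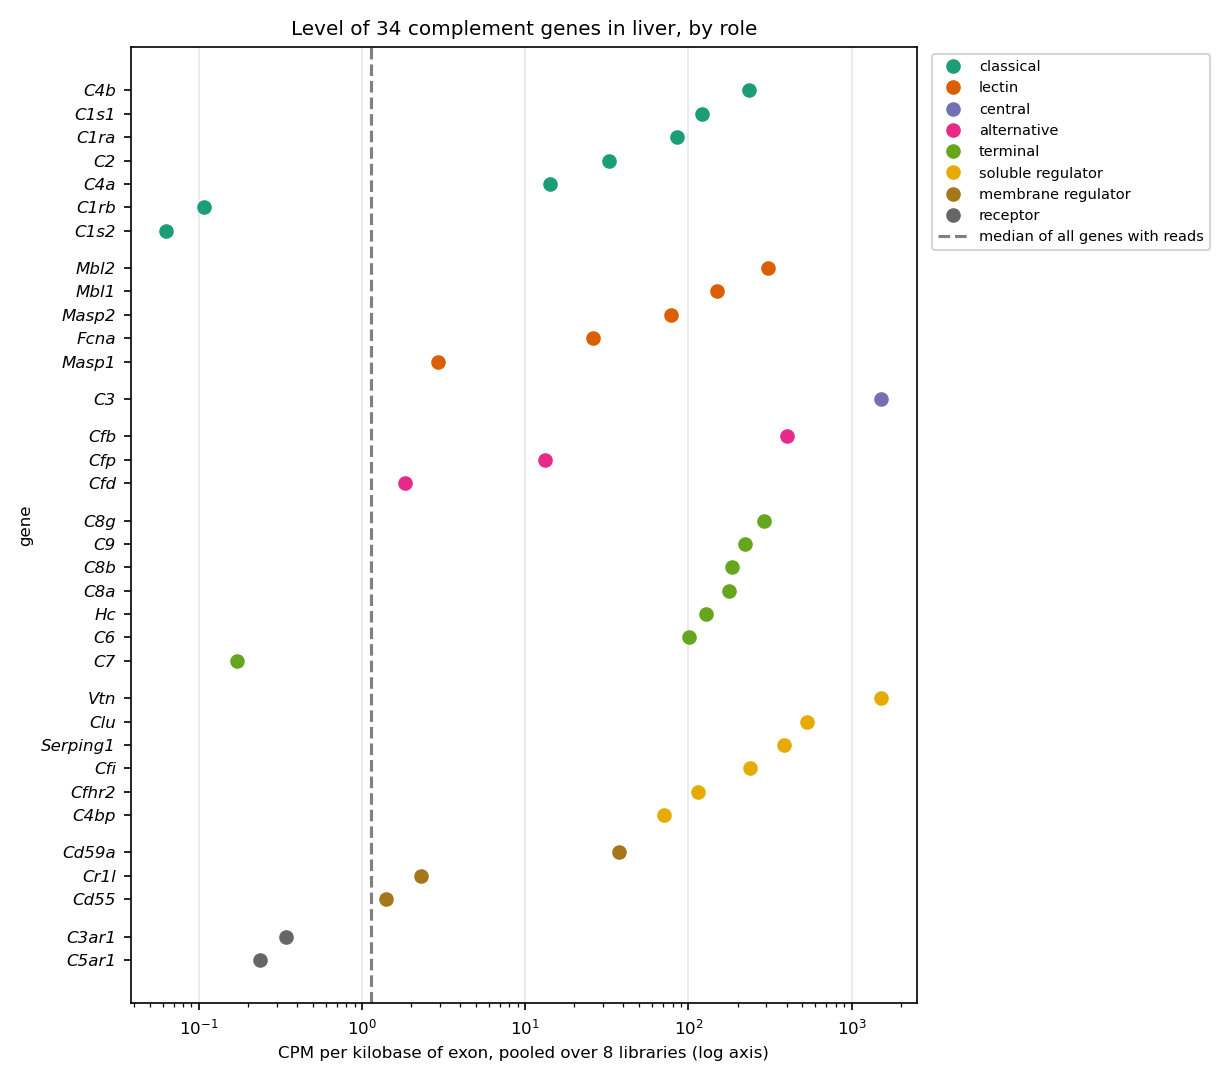
Level of the 34 complement genes in CPM per kilobase of exon (log axis), pooled over the 8 libraries and grouped by role, 1 point a gene, with the median of all genes with reads (1.14) as a dashed line. *Vtn* (1522) and *C3* (1516) lie farthest to the right, and *C1rb*, *C1s2*, *C7* and both receptors lie left of the line.

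**Figure D2:**
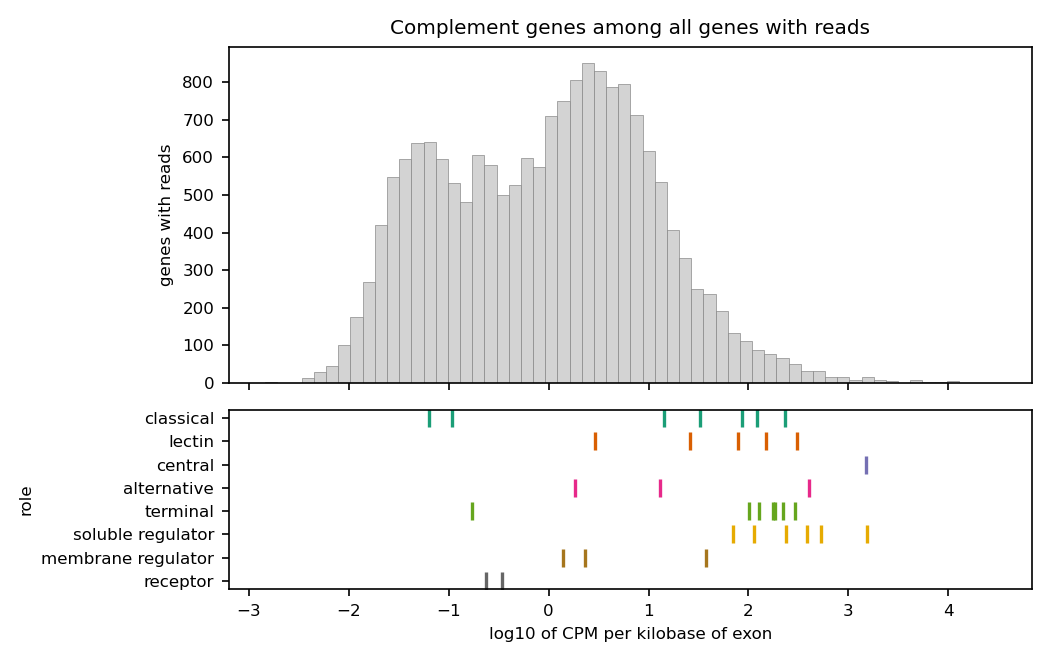
Above, the number of genes with reads by log10 of CPM per kilobase of exon. Below, each complement gene as a tick on the same axis, in a row for its role; most soluble components sit in the right tail, and the 2 receptors sit left of the middle.

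The windows around the annotated start sites of 6 genes are printed here because they belong to the genes with the highest levels, *C3* and *Vtn*, and to the duplicated pairs with the largest difference in level, *C1ra* and *C1rb*, and *C1s1* and *C1s2*. Each runs from 250 bases before to 50 bases after the start and comes from RefSeq (GRCm38.p6), 5′ to 3′ on the strand of the gene. *C1s1* has 2 annotated starts, and the window of the downstream one is shown. In *C1ra* and *C1rb* the capitals mark the stretch in which the windows align. In the others they mark matches, on either strand, to the TATA box core TATAAA and to the C/EBP-type site TTNNGNAA. The capitals there also mark matches, again on either strand, to the HNF1 core GTTAAT, one arm of that factor's palindrome.
C1ra (chr6:124512371-124512670, plus strand): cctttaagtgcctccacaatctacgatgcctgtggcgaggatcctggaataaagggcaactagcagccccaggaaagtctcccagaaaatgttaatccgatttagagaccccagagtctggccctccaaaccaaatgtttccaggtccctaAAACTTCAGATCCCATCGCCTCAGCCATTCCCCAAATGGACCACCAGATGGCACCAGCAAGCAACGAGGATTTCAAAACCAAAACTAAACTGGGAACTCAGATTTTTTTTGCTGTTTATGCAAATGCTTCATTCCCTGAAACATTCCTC
C1rb (chr6:124570180-124570479, plus strand): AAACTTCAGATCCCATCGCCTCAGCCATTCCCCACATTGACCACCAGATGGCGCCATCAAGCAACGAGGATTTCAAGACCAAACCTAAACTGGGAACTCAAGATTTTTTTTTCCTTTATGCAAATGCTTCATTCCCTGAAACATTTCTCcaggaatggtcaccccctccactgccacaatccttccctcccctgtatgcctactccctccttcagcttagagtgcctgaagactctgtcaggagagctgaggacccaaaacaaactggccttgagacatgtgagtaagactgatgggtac
C1s1 (chr6:124542272-124542571, minus strand): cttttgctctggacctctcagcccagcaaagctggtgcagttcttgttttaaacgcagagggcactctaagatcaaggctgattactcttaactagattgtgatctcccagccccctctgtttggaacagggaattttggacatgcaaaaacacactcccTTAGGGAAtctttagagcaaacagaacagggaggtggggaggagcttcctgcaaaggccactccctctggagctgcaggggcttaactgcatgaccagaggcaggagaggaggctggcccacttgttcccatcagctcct
C1s2 (chr6:124636036-124636335, minus strand): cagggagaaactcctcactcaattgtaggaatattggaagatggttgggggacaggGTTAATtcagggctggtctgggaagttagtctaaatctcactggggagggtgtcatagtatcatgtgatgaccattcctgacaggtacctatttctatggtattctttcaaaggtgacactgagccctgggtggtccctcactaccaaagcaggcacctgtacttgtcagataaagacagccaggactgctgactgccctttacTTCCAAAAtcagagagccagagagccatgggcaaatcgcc
C3 (chr17:57228087-57228386, minus strand): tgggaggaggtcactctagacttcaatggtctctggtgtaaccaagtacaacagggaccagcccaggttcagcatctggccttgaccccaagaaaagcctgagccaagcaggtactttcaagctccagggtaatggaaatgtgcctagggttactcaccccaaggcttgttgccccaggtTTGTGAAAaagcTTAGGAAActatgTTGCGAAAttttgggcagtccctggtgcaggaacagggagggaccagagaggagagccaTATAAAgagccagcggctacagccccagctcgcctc
Vtn (chr11:78498870-78499169, plus strand): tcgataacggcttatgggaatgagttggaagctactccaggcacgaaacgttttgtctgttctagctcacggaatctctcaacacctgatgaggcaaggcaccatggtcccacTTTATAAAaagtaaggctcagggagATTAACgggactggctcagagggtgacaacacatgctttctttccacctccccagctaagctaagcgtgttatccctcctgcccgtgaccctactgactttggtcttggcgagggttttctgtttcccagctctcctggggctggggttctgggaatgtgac

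*C3* encodes the protein on which all routes of activation converge. It lies on chromosome 17 (57203970 to 57228136, minus strand) and had a log2 CPM of 12.93, equal to an estimated 214256 reads per library, the most of the 34 genes. Per kilobase it reached 1516 and ranked as number 43 of all genes. Its start window holds 3 C/EBP-type matches within 33 bases (bases 181 to 213) and a TATAAA match at bases 265 to 270, just past the annotated start. With exon length only *Vtn* was as high per kilobase, at 1522. The pair cannot be ordered, because these levels nearly coincide and no spread is known. With coding length *Vtn* had 2154, *C3* 1563 and *Clu* 1357. With the longest transcript the 3 genes had 1771, 1518 and 1008.

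Classical pathway genes encode the proteases and substrates that act after C1q has bound antibody. *C4b*, whose product is the C4 of this pathway, led with 233.7 CPM per kilobase (log2 CPM 10.38). The C1 proteases followed, with 121.7 for *C1s1* and 85.6 for *C1ra*. These products work as a tetramer of equal numbers of each chain, and the level of *C1ra* was 0.704 of that of *C1s1*. *C2*, the protease that C4b carries, had 32.8, so *C4b* exceeded it 7.13-fold. That ratio fell to 4.58 when coding length was used in place of exon length.

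*C4b*, *C1ra* and *C1s1* each have a tandem copy in the mouse, and the copies were lower in all 3 cases. *C4a*, which encodes the sex-limited protein related to C4, had 14.2 CPM per kilobase, and *C4b* was 16.5-fold higher. *C1rb* had an estimated 5.17 reads per library and *C1s2* an estimated 2.62, the lowest counts of all 34 genes. Per kilobase *C1ra* stood 797-fold above *C1rb* and *C1s1* stood 1926-fold above *C1s2*. With so few reads these ratios depend on the prior count, and without it they became 1105 and 3395.

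The 4 genes alternate along chromosome 6. From left to right they are *C1ra* (124512405 to 124523443, plus strand), *C1s1* (124530345 to 124542359, minus strand), *C1rb* (124570294 to 124581171, plus strand) and *C1s2* (124624625 to 124636085, minus strand). The high pair are thus immediate neighbours, with 6.90 kb between their ends, and the low pair follow 27.9 kb away. The windows of *C1ra* and *C1rb* printed above align over 148 bases, of which 139 are identical (93.9%). The stretch ends the window of *C1ra* (bases 152 to 300) but begins that of *C1rb* (bases 1 to 149), so the annotated starts are not at matching places. The best local alignment between the windows of *C1s1* and *C1s2* covered 11 bases. The sequences describe the reference, and their part in the levels was not tested.

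**Figure D3:**
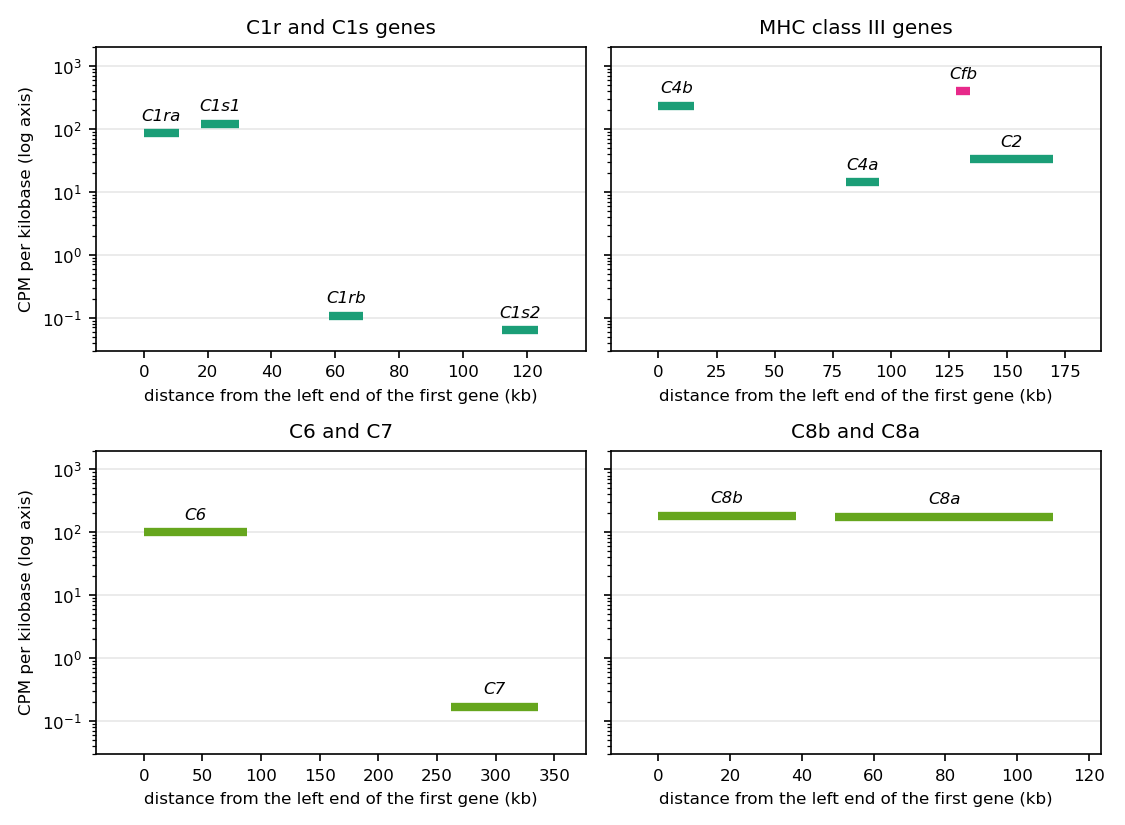
Level of neighbouring complement genes in CPM per kilobase of exon (log axis) against the distance in kilobases from the left end of the first gene, each bar as long as its gene, for the C1r and C1s genes, the MHC class III genes, *C6* with *C7*, and *C8b* with *C8a*. *C1rb* (0.107) and *C1s2* (0.0632) lie far below *C1ra* (85.6) and *C1s1* (121.7), and *C7* (0.170) far below *C6* (100.9).

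Reads from copies can be split or dropped by the counting. Windows of 100 bases from each gene's GENCODE transcripts were therefore looked up in the transcripts of all other genes. Of the windows of *C1ra*, 34.5% also occur in *C1rb*, and 42.7% of those of *C1rb* occur in *C1ra*. The share was lower between *C1s1* and *C1s2* (6.87% and 8.78%) and between *C4b* and *C4a* (15.2% and 13.1%). How multi-mapping reads were treated is not given in the sources used here, so the levels of these 6 genes are uncertain by an unknown amount. At least 1% of the windows were shared for 12 of the 34 genes. Both strands were searched, and not all of the 12 have copies. *Masp2* shared windows only with *Tardbp* and *Cfb* only with *Gm20547*, which are annotated genes that overlap them.

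**Figure D4:**
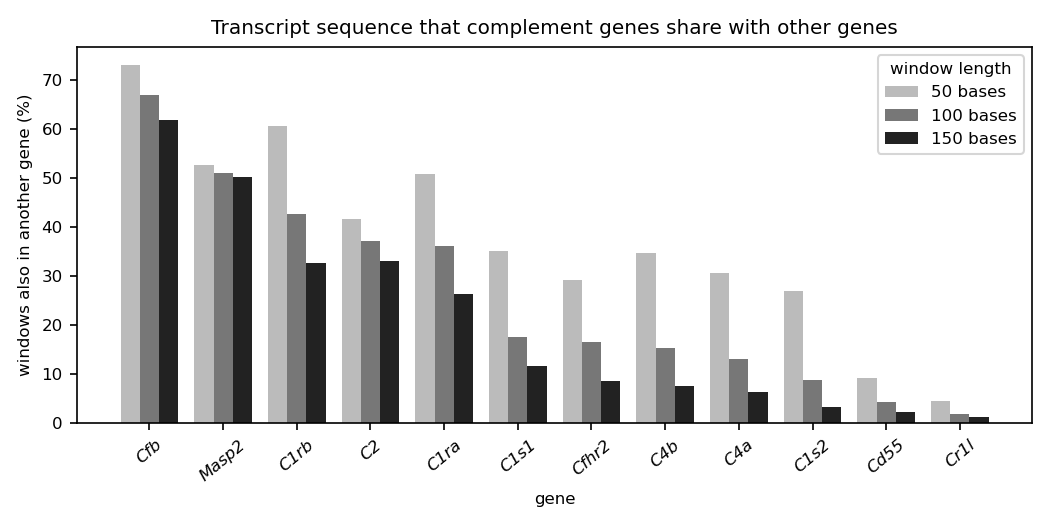
Share of distinct transcript windows (percent) that also occur in a transcript of another gene, for the 12 complement genes with at least 1% at a window of 100 bases; the 3 bars of a gene stand for windows of 50, 100 and 150 bases. *Cfb* (66.9% at 100 bases) and *Masp2* (50.9%) share most, with annotated genes that overlap them.

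Lectin pathway genes encode sugar-binding proteins and the proteases they carry. *Mbl2* and *Mbl1*, the mannose-binding lectins C and A, had 308.2 and 150.4 CPM per kilobase, a ratio of 2.05. Both lay in the top 2% of genes, at percentiles 99.1 and 98.2. *Masp2*, the protease that cleaves C4 and C2, had 77.8. *Masp1*, which activates it, had 2.91. The ratio of *Masp2* to *Masp1* was 26.7 with all annotated exons and 9.62 with coding length, since *Masp1* has 9833 bases of exon in all its transcripts together. *Masp2* overlaps *Tardbp* on the other strand over 1817 bases, 54.9% of its exons. The libraries were stranded, but the strand setting of the counting is not given in the sources used here, so its level carries that doubt. *Fcna*, the gene of ficolin A, a plasma lectin made by macrophages, had 26.2. The Kupffer cell and macrophage markers ranged from 1.47 (*Adgre1*) to 33.2 (*Clec4f*), and *Fcna* lay within their range. Their part in its level was not tested.

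Alternative pathway genes encode the proteins that amplify C3 cleavage, and their levels lay far apart. *Cfb*, the protease that binds C3b, had 399.8 CPM per kilobase and an estimated 31026 reads per library. *Cfp*, which encodes properdin, the stabilizer of the C3 convertase and a product of leukocytes, had 13.1. *Cfd*, which encodes factor D or adipsin, had 1.84, from an estimated 44.6 reads per library, 217-fold below *Cfb*. Factor D is known as a product of fat. Of the 5 adipocyte markers, 4 had under 10 estimated reads per library (*Adipoq* 6.88, *Retn* 2.66, *Plin1* 1.14 and *Lep* 0.254), and *Fabp4*, which endothelial cells also express, had 254.9. Their part in the level of *Cfd* was not tested.

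*Cfb* lies with *C2*, *C4a* and *C4b* in the MHC class III region of chromosome 17, all on the minus strand. Only 85 bases lie between *Cfb* and *C2*, and *Cfb* was 12.2-fold higher per kilobase. An annotated gene that joins the 2, *Gm20547*, covers 79.5% of the exon bases of *Cfb* and 42.8% of those of *C2*. *Gm20547* itself was not among the genes with a deposited level. How reads from such a joint transcript were assigned was not analysed here, and the levels of both genes carry that doubt.

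Terminal pathway genes encode the proteins that assemble into the membrane attack complex. Leaving out *C7*, the 6 others lay within 2.88-fold of each other with exon length and within 5.60-fold with coding length. *C8g* had 290.9 CPM per kilobase, *C9* had 223.5, *C8b* had 184.3, *C8a* had 177.9, *Hc* (the mouse name of C5) had 128.7 and *C6* had 100.9. C9 is the subunit that enters each pore in many copies. Its gene exceeded *C6* 2.22-fold and *Hc* 1.74-fold but lay below *C8g*. The 3 chains of C8 form 1 protein. The genes of its alpha and beta chains, which lie 11.1 kb apart on chromosome 4 on opposite strands with their starts at the outer ends, had a ratio of alpha to beta of 0.966 with exon length and 1.38 with coding length, so they cannot be ordered. *C9* and *C8a* changed order too, with a ratio of 1.26 that became 0.924. The unlinked gene of the gamma chain, *C8g* on chromosome 2, stood 1.64-fold above *C8a*.

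*C7* was the exception. It had a log2 CPM of -1.13, an estimated 10.5 reads per library and 0.170 CPM per kilobase, at percentile 28.3. *C6*, 173.8 kb away on chromosome 15, was 592-fold higher per kilobase, and *C9* was 1312-fold higher. The structure of C7 is that of the other pore proteins, and its plasma pool is known to come in part from cells outside the liver. The transcript windows of *C7* had no match in other genes at 50, 100 or 150 bases.

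Soluble regulators made up 40.9% of the summed level per kilobase of the 34 genes, more than any other role, and all 6 were in the top 10% of genes. In CPM without length the 6 summed to 7040, below *C3* alone with 7799. *Vtn*, which encodes vitronectin, an inhibitor of pore assembly and a cell adhesion protein, lies on chromosome 11 (78499091 to 78502324, plus strand) and had a log2 CPM of 11.59. *Clu*, whose product clusterin also binds the terminal complex, had 530.7 CPM per kilobase. *Vtn* exceeded it 2.87-fold with all exons and 1.59-fold with coding length. *Serping1* encodes the C1 inhibitor, which removes active C1r and C1s, and had 387.7. It stood 4.53-fold above *C1ra* and 3.19-fold above *C1s1*. *Cfi*, the protease that inactivates C3b and C4b, had 239.6, and *C4bp*, its cofactor for C4b, had 70.4. The order of the last pair turned with the length used, since *C4bp* has 6730 bases of annotated exon: the ratio of *Cfi* to *C4bp* was 3.40 with exon length, 2.08 with the longest transcript and 0.873 with coding length. *Cfhr2* had 114.1, and it shares 16.4% of its windows with other genes.

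Membrane regulators protect the body's own cells. *Cd59a*, which blocks the insertion of C9, had 37.7 CPM per kilobase, at percentile 94.1. *Cr1l* encodes Crry, the rodent inhibitor of the C3 convertase, and had 2.30. *Cd55*, the decay-accelerating factor, had 1.40. *Cd59a* was thus 16.4-fold above *Cr1l* and 27.0-fold above *Cd55*, but with the longest transcript these ratios were 6.13 and 17.5. *Cr1l* has 10349 bases of exon over all its transcripts.

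The receptors of the anaphylatoxins C3a and C5a sit mainly on myeloid cells and were the lowest role. *C3ar1* had 0.344 CPM per kilobase, from an estimated 38.6 reads per library, and *C5ar1* had 0.237, from 14.7 reads. Both were below each of the 7 Kupffer cell and macrophage markers, of which *Adgre1* was lowest with 1.47. Fewer cells of a type and less RNA per cell cannot be told apart in whole liver.

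In the order of all 34 genes by level per kilobase, 26 of the 33 steps from a gene to the next were within 1.5-fold and 9 within 1.1-fold. The order of such neighbours cannot be told without the spread between mice. The larger steps fell after *C3* (2.86-fold to *Clu*), after *C4bp* (1.87-fold to *Cd59a*), after *Fcna* (1.85-fold to *C4a*), after *Cfp* (4.52-fold to *Masp1*), after *Cd55* (4.07-fold to *C3ar1*) and before each of the last pair, *C1rb* (1.59-fold) and *C1s2* (1.70-fold). These steps are those of exon length, and several depend on it. With coding length *C3* (1563) and *Clu* (1357) lay close together, as did *Cfp* (16.4) and *Masp1* (13.0). *C4bp* then rose to number 10 in the order, and *C4a* dropped out.

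Of 23 further genes of the complement system, 22 had reads, 13 were in the upper part of the transcriptome (above the median gene) and 6 in its top 10%. Both chains of carboxypeptidase N, which inactivates the anaphylatoxins, were high, with 83.3 CPM per kilobase for *Cpn1* and 88.3 for *Cpn2*. The C1q genes *C1qa*, *C1qb* and *C1qc* had 30.9, 31.3 and 15.8, below *C1ra* and *C1s1*, whose products bind them. *Cd46*, a membrane regulator that the mouse expresses mainly in testis, had 0.0520 with an estimated 8.86 reads per library, *Cr2*, a receptor of B cells, had an estimated 3.38 reads, and *Fcnb*, a ficolin of myeloid cells, was at the floor.

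Start windows were found in RefSeq for 26 of the 34 genes, 28 windows in all, and searched on both strands for 7 motifs. None was found for *C2*, *C4a*, *C4b*, *Cfb*, *Cfi*, *Clu*, *Masp1* and *Serping1*. Several of the highest genes are thus left out, among them *Clu* and *Cfb*, numbers 3 and 4 by level per kilobase. The HNF1 core GTTAAT, named for a transcription factor of hepatocytes, was in 11 of the 28 windows (39.3%) and in 7.10% of all 32851 RefSeq start windows. The STAT-type palindrome TTCNNNGAA was in 7 (25.0% against 8.30%), the NF-kB-type site (GGG, any 2 bases, T, any 2 bases, CC) in 10 (35.7% against 18.4%), TTNNGNAA in 15 (53.6% against 40.7%) and TATAAA in 5 (17.9% against 13.6%). The windows are not independent, since the 2 of *C1s1* overlap and those of *C1ra* and *C1rb* share an aligned stretch. Some matches therefore count more than once. By gene, the NF-kB-type site was in 9 of 26 and TTNNGNAA in 14 of 26. The HNF4-type site CAAAGTCCA and the direct repeat of AGGNCA with a 1-base spacer, of the type that PPAR and RXR bind, were in 0 of the 28 windows, against 0.475% and 0.381% of all windows. Motifs this rare would seldom be met in any 28 windows, so the count of 0 says little about these genes. Some matches of different motifs overlap. The level of a gene and a match in its window did not always go together: *C7*, *C1s2* and *Cd55*, all low for this set, hold GTTAAT, and *C3* does not. These matches are letters in a window, not binding sites.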

How the data were processed

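RNA was sequenced from 8 mouse livers as paired-end, stranded poly-A libraries. The authors' processing used Trimmomatic for trimming, FastQC for quality, RNA STAR for alignment (GRCm38), featureCounts for gene counts and edgeR for the fit. Versions, annotation and settings are not given in the sources used here.

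The authors' average log2 CPM over all libraries was used as deposited. The 4 other value columns (log2 fold change, F, p-value and FDR of mutant against wild-type) are the authors' own comparison and were not used, nor was the row order, so the genotypes could not be compared. The genes, lists and motifs were chosen with earlier results of these data known; all 34 genes are named by rule, and 1 gene of the list of further complement genes is not reported here.

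CPM is 2 to the power of the log2 value, prior count included. The library size was estimated from the floor. Among the 2378 genes whose total came out at 1 to 5 reads, 99.9% of totals were whole to within 0.1. The depth of each library is unknown, and no interval is given. Exon lengths (GENCODE vM21, by Ensembl identifier or symbol) covered 94.8% of genes with reads. The 5 cholangiocyte, 5 endothelial and 6 stellate markers had medians of 1.19, 3.71 and 1.44 CPM per kilobase. Biopython 1.88 aligned the windows (local), and Python 3.11.15 with pandas 2.3.3 and matplotlib 3.10.9 did the rest. The read estimate and window count were tested on simulated data.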

Additional observations from a re-analysis of the deposited data

How the results depend on the processing

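The count of complement genes in the top 10% by level per kilobase was 23. It ran from 21 (coding length, and genes with an average log2 CPM of at least 0) to 25 (all genes of the table), with the longest transcript and with the prior count taken off both giving 23. The median percentile of 97.3 moved to 95.7 with coding length, to 98.1 among all genes of the table and to 96.5 among genes with an average log2 CPM of at least 0, where 30 of the 34 genes remained. The count in the top 1% was 3 with coding length and 3 among genes with an average log2 CPM of at least 0, and otherwise ran from 6 to 10. Coding length widened the span of the terminal genes without *C7* to 5.60-fold, and taking off the prior count widened that of all 34 genes to 42449-fold. *C4a* has no coding transcript in the annotation used and drops out under coding length. Of 28 ratios between genes, 27 stayed within 1.5 times with the prior count taken off and 23 with the longest transcript. With coding length 21 did, and 5 moved further. Of the ratios of at least 1.5-fold, 1 reversed with coding length, *Cfi* over *C4bp*, to 0.873. Of the smaller ratios, 2 also changed order there, *C8a* over *C8b* to 1.38 and *C9* over *C8a* to 0.924. The number of genes with at least 1% shared windows was 12 at 100 and 150 bases and 14 at 50 bases. No paired analysis was possible because the table holds no values per library, and for the same reason single mice could not be left out. The estimated depth limits *C1rb* and *C1s2* most, with under 10 reads per library.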
